A study of Rattus norvegicus with 9 samples.

Results

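Interferon-stimulated genes are the transcripts that cells raise after an interferon has bound its receptor. Type I and type II interferons signal through Janus kinases and STAT proteins, and the resulting factor complexes, together with interferon regulatory factors, bind short elements in the promoters of these genes. In the injured brain such genes are known from microglia, infiltrating leukocytes, astrocytes, and endothelial cells, and their products restrict viruses, mark proteins, and feed back on the pathway itself.

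The 9 genes described here were Irf7 (a regulatory factor of the pathway), Isg15 (a ubiquitin-like modifier), Mx1 and Mx2 (dynamin-like antiviral GTPases), Oas1a and Oasl (a 2′-5′ oligoadenylate synthetase and a synthetase-like protein), Ifit3 (a tetratricopeptide protein), Bst2 (tetherin, which holds budding virus at the cell surface), and Slfn3 (a schlafen family member). They are 9 of the 19327 gene names on the array, placeholder names of uncharacterized loci included, were taken by symbol, and have 10 of the 30367 non-control probes, and a gene with several probes was represented by the brightest. Slfn3 and Bst2 had been chosen by their log2 fold change between DHI and I/R, among the largest on the array, and the other genes belong to the same response. The differences between DHI and I/R are therefore given as a description with no test, as are all differences of Slfn3 and Bst2, since each comparison shares the I/R or the DHI arrays with that choice. Oasl is given without a test in I/R versus Sham, because it entered the set of tested probes only through the I/R arrays, where it is high.

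The samples were brain hemispheres of male Sprague Dawley rats at day 14, infarcted in the injured groups, measured on 9 one-color Agilent arrays, 3 per group. Sham rats underwent the operation without occlusion and received vehicle. I/R rats, labelled model, had the middle cerebral artery occluded for 2 h and then reperfused. DHI rats had the same injury and received Danhong injection, a Chinese herbal preparation, through the tail vein daily for 14 days. Each value below is a log2 signal after subtraction of the 75th percentile for that array, so that 0 is the level of that percentile. This percentile ranged from 1816.3 to 3464.4 intensity units and 75.2% to 78.9% of probes were well above background on an array, while 0 spots were saturated. All 9 genes passed the filter on dim probes, and 7 were well above background on all 9 arrays. The exceptions were Slfn3 and Oasl, which were well above background on 0 of the 3 Sham arrays and on 2 of the 3 DHI arrays. The Sham and I/R arrays lay on 1 slide and the DHI arrays on another, so slide and DHI cannot be told apart. A group of 3 arrays gives only coarse estimates of the spread.

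The probes are 60 bases long and show which part of a transcript was read. The 3 below stand for the regulator, the modifier, and a gene that was not above background in Sham, and are given 5′ to 3′ with their rn4 positions. The Irf7 probe lies at chr1:201456889-201456948, the Isg15 probe at chr5:173034674-173034733, both on the minus strand, and the Oasl probe spans chr12:42958314-42959155 on the minus strand, a range longer than the probe itself.
Irf7: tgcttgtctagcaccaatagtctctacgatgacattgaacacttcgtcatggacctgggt
Isg15: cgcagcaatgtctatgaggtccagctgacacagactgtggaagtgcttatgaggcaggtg
Oasl: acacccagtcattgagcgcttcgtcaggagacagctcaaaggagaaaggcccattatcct
Several genes belong to families with similar members. The longest run of bases that a probe shared with any probe of another family gene was 4 between Mx1 and Mx2, 6 for Ifit3 (with Ifit2), 7 for Oas1a (with Oas1i), and 12 for Oasl (with Oas1k). Probes were compared only with probes and not with whole transcripts, so these runs do not show whether a probe also reads a relative. The Slfn3 probes match the transcript that RefSeq now lists under the symbol Slfn4, and the older symbol is kept here.

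Because the genes moved together, their promoters were read from RefSeq (GRCr8) as windows of 300 bases, 250 before and 50 after the start. Windows were found for 7 of the 9 genes, all but Isg15 and Mx2. Both strands were searched for GAAANNGAA, which is 9 letters of the interferon-stimulated response element. It was found in 4 of the 7 genes, compared with 9.71% of all 33469 promoter windows, and more than once in 3 of the 7, compared with 0.759% of windows. The 150 bases before the start are given for these 4 genes, 5′ to 3′ along the gene, with the matches in capitals. The Bst2 window is chr16:18254968-18255117 (minus strand), Irf7 is chr1:205800024-205800173 (minus strand), Oas1a is chr12:41330316-41330465 (plus strand), and Ifit3 is chr1:241527176-241527325 (plus strand).
Bst2: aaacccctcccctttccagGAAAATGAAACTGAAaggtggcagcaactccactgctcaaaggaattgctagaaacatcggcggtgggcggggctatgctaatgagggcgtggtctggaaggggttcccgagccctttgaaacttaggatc
Irf7: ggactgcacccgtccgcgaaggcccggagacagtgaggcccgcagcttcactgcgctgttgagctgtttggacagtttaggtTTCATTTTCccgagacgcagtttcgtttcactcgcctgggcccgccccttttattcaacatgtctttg
Oas1a: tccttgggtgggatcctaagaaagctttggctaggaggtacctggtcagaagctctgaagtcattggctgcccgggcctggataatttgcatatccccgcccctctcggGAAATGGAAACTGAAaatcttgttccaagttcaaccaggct
Ifit3: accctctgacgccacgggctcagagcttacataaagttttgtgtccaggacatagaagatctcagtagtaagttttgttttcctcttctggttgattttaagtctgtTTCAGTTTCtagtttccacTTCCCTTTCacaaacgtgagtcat
In Bst2 and Oas1a the pair of matches overlap and begin 6 bases apart, at -131 and -125 and at -41 and -35 from the start. The matches of Irf7 (-68) and Ifit3 (-43 and -24) lie on the opposite strand. The windows of Slfn3, Mx1, and Oasl held no match to these letters. The gamma-activated site, TTCNNNGAA, was found in 2 of the 7 genes, Bst2 (-137) and Oas1a (-199), compared with 8.87% of all windows, and its Bst2 match overlaps the first response element by 3 letters. The core AANNGAAA was found in 5 of the 7 genes and in 26.4% of all windows. Letters in a window are a description and do not show that a factor binds there.

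In the I/R hemispheres all 9 genes were higher than in Sham on every array, and the groups did not overlap for any of them. The 7 genes well above background on all arrays were higher by 1.93 (Mx2) to 6.04 (Mx1) on the log2 scale, while Slfn3 and Oasl, which were not above background in Sham, have only lower bounds, given below. Among the 23747 probes tested, 26.7% were higher in I/R with no overlap. The median log2 fold change of the 9 genes was 5.41, or 5.16 with Slfn3 and Oasl at their bounds, compared with -0.10 for all probes. The 6 genes that could be tested, Irf7, Isg15, Mx1, Mx2, Oas1a, and Ifit3, each passed limma's test with an adjusted p of 0.0397, and 16.6% of all probes were higher by that rule. The list was proposed with these results known. Their adjusted p-values lay at 1 value just under the threshold, and 5 of the 6 fits without 1 Sham or I/R array gave an adjusted p over 0.05 for these genes (0.0882, 0.122, and 0.11 without Sham 1, 2, and 3, and 0.134 and 0.129 without I/R 1 and 2), as did the fit without DHI 3 (0.0577). In these fits 0% to 0.00421% of all probes passed the adjusted p in I/R versus Sham, so the loss was not particular to the 6 genes. The 6 genes kept their direction in each of these fits. The model takes 1 spread per probe from all 3 groups. Each SE and p of I/R versus Sham therefore also holds the spread of the DHI arrays, which was wider for these genes.

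Irf7, which amplifies interferon production once it is induced, measured -1.89, -2.49, and -3.14 on Sham arrays 1, 2, and 3, then 4.06, 3.53, and 2.31 on the I/R arrays, and 2.49, -2.91, and -0.16 on the DHI arrays. Every I/R array was above every Sham array, DHI 1 lay inside the I/R range, and DHI 2 lay inside the Sham range. The I/R level was 55.8-fold that of Sham (log2 fold change 5.80 ± 1.20, SE, limma adjusted p 0.0397). The DHI mean was 3.49 lower than the I/R mean on the log2 scale.

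Isg15 is conjugated to other proteins by an enzyme chain of its own and is among the most strongly interferon-induced transcripts known. Its Sham levels were -1.84, -2.31, and -2.57, its I/R levels 3.73, 3.30, and 2.47, and its DHI levels 2.80, -2.41, and -0.51. DHI 1 lay inside the I/R range, DHI 2 inside the Sham range, and DHI 3 between the groups. The I/R level was 42.4-fold that of Sham (5.41 ± 1.12, SE, limma adjusted p 0.0397), and the DHI mean was 3.21 below the I/R mean in log2 signal.

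The antiviral GTPases Mx1 and Mx2 lie on the same chromosome. Mx1 measured -1.49, -2.39, and -2.46 in Sham, 4.61, 4.21, and 2.96 in I/R, and 3.28, -1.79, and -0.71 in DHI. Its I/R level was 65.9-fold that of Sham (6.04 ± 1.17, SE, limma adjusted p 0.0397), with DHI 1 inside the I/R range and DHI 2 inside the Sham range. Mx2 measured 3.54, 3.19, and 3.09 in Sham, 5.67, 5.39, and 4.52 in I/R, and 4.80, 3.52, and 3.75 in DHI, again with DHI 1 inside the I/R range. It moved least of the 9 genes, 3.80-fold (1.93 ± 0.40, SE, limma adjusted p 0.0397), and ranked 1794 of the 23747 probes by its rise, where the other 6 genes well above background on all arrays ranked between 38 and 229.

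The oligoadenylate synthetases make the activator of the RNA-cleaving enzyme RNase L, an activity that Oasl lacks. Oas1a measured -3.97, -4.72, and -4.93 in Sham, 1.14, 0.73, and -0.21 in I/R, and 0.01, -4.73, and -3.12 in DHI, a rise of 34.1-fold in I/R (5.09 ± 1.05, SE, limma adjusted p 0.0397). DHI 1 lay inside the I/R range of Oas1a and DHI 2 inside its Sham range. Oasl measured -9.90, -9.98, and -10.01 in Sham, where it was not well above background, and -2.82, -3.49, and -4.72 in I/R, at least 35.7-fold higher against the lowest signal well above background. On the DHI arrays Oasl measured -4.17, -7.63, and -7.82, so DHI 1 lay inside the I/R range, DHI 2 and DHI 3 lay below it, and all 3 were above every Sham array. Ifit3, which binds RNA in complex with its relatives, measured -5.18, -3.87, and -4.75 in Sham, 0.55, 0.14, and -1.34 in I/R, and -0.83, -5.23, and -4.07 in DHI. Its I/R level was 20.9-fold that of Sham (4.38 ± 1.06, SE, limma adjusted p 0.0397), and DHI 2 lay below the lowest Sham array.

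Bst2 had the least spread within I/R of the 9 genes. It measured -2.70, -2.25, and -2.78 in Sham, 2.35, 2.79, and 2.11 in I/R, and 0.42, -3.40, and -0.51 in DHI. Judged by the brightest probe of each gene, it was the only 1 of the 9 whose DHI arrays all lay below every I/R array. Its DHI 2 level was below every Sham array. The I/R mean was 31.8-fold the Sham mean (4.99 on the log2 scale), and the DHI mean was 11.9-fold below the I/R mean (-3.58).

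Slfn3, of a family linked to the control of lymphocyte and myeloid growth, measured -8.12, -9.06, and -9.0 in Sham, 0.21, 0.28, and -1.68 in I/R, and -1.63, -9.21, and -6.54 in DHI (brightest probe, chr10:71300407-71300466, rn4). DHI 1 was at the level of I/R 3, and DHI 2 was at the level of Sham. The I/R mean was at least 298-fold that of Sham. The fall of 5.40 from I/R to DHI ranked 1 among falls, which is what chose the gene, with 2 of 3 DHI arrays well above background. The other Slfn3 probe (chr10:71299503-71299562) measured -9.91, -10.01, and -10.02 in Sham, -1.76, -1.44, and -3.41 in I/R, and -3.71, -8.31, and -9.31 in DHI. On this probe I/R was at least 99.0-fold higher than Sham, and all DHI arrays lay below every I/R array.

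**Figure D1:**
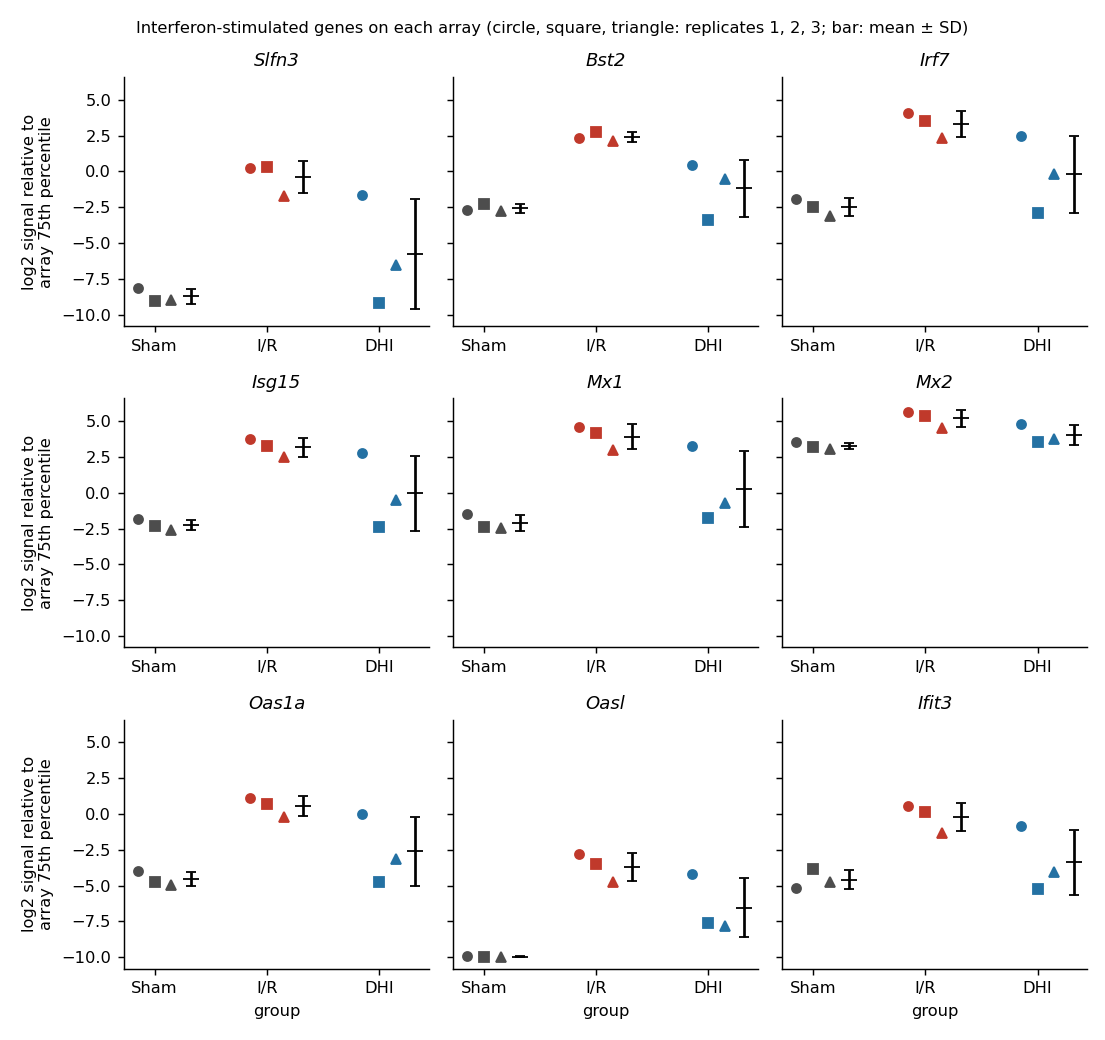
Log2 signal of each of the 9 genes, with the array's 75th percentile at 0 (y axis), by group (x axis: Sham, I/R, DHI); circles, squares, and triangles are replicates 1, 2, and 3, and black bars are the mean ± SD of 3 arrays. All I/R points lie above all Sham points for every gene, while the DHI points spread from near the I/R points (replicate 1) to near the Sham points (replicate 2).

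The DHI arrays did not form a tight group for these genes. The SD of the DHI group ranged from 0.68 (Mx2) to 3.84 (Slfn3), compared with 0.35 (Bst2) to 1.11 (Slfn3) in I/R and 0.06 (Oasl) to 0.67 (Ifit3) in Sham. DHI 1 was the highest DHI array for 9 of 9 genes and was above I/R 3 for 8 of 9, the exception being Bst2. DHI 2 was the lowest DHI array for 8 of 9 genes, the exception being Oasl. DHI 2 lay within the Sham range for 5 genes, below it for 3 (Slfn3, Bst2, and Ifit3), and above it for 1 (Oasl). The Slfn3 signals on DHI 2 and in Sham, and the Oasl signals in Sham, were not well above background. Their order and their Sham SD are therefore those of background readings.

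**Figure D2:**
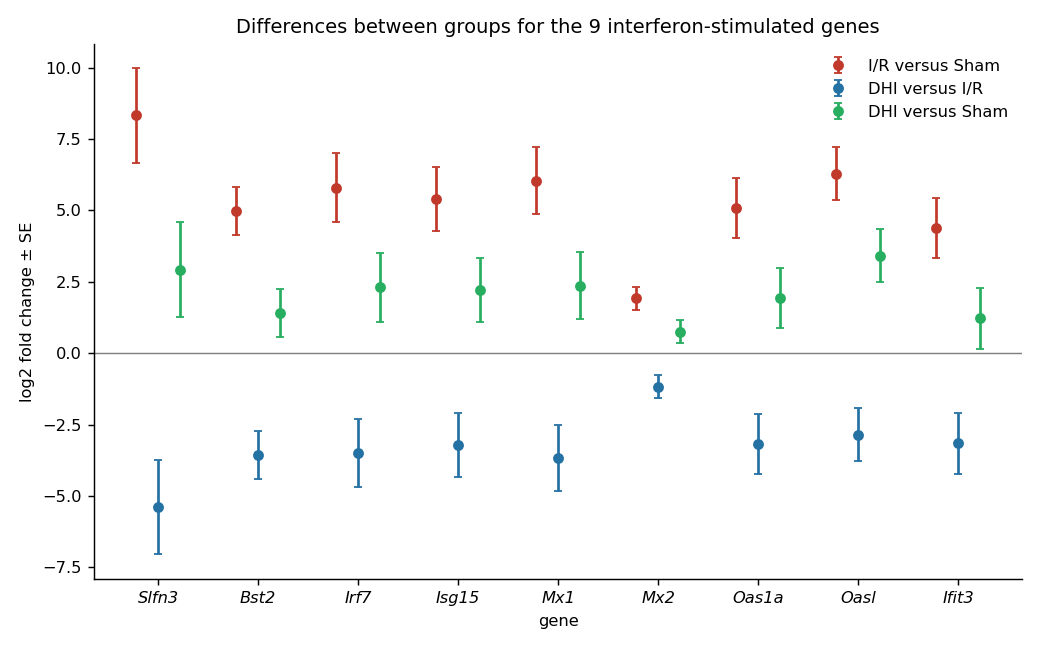
Log2 fold change ± SE from the model over 9 arrays (y axis) for the 9 genes (x axis) in 3 comparisons. I/R versus Sham, in red, runs from 1.93 (Mx2) to 8.33 (Slfn3), DHI versus I/R, in blue, from -5.40 (Slfn3) to -1.17 (Mx2), and DHI versus Sham, in green, from 0.75 (Mx2) to 3.42 (Oasl), and the red and green points of Slfn3 and Oasl are measured against Sham signals not above background.

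In DHI versus I/R, the comparison behind the choice, the 9 genes were lower by 1.17 (Mx2) to 5.40 (Slfn3) on the log2 scale, with a median of -3.21, and the median of all probes was 0.10. The groups did not overlap for 1 of the 9, Bst2, and for 4.02% of all probes. Across the array, 1 probe (0.00421%) was lower with an adjusted p under 0.05, and it was none of these genes. Nothing is read from this count, since this contrast chose the genes.

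In DHI versus Sham, which shares the DHI arrays with the choice, the DHI mean was above the Sham mean for 9 of 9 genes, by 0.75 (Mx2) to 2.37 (Mx1) on the log2 scale for those well above background on all arrays and by at least 7.08-fold (Slfn3) and 4.90-fold (Oasl) for the others, with a median of 2.20. Of the 7 genes other than Slfn3 and Bst2, 0 passed the adjusted p in limma (0.708 to 0.712), and across all probes 0 passed it. By the thresholds of the study's methods, an unadjusted p under 0.05 and a fold change over 1.5, 1 of the 7, Oasl, was higher (limma p 0.0064), compared with 2.52% of all probes. By brightest probes, Oasl was also the only gene of the 9 with no overlap between DHI and Sham. That held for 10.3% of all probes in that direction, and the other Slfn3 probe did not overlap either. Both probes were not above background in Sham and were tested only through the I/R arrays. Their differences between DHI and Sham are therefore set against background signal. Of interferon pathway genes well above background on 0 arrays, Irf4, Tlr9, and Ifng were also higher in DHI with no overlap, whereas Ifnk and Il28ra overlapped. With DHI 2 left out, 5 of the 7 passed the same unadjusted thresholds and the median difference of the 9 was 3.38. In that fit 10.6% of all probes passed them in either direction. With DHI 1 left out the median was 0.78, 1 of the 7 passed (3.54% of all probes in either direction), and Ifit3 changed sign, to -0.05.

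Each array was also placed between the mean of Sham (position 0) and the mean of I/R (position 1) for each gene. The median position of the 9 genes was 0.86 on DHI 1 (range 0.60 to 0.93), -0.04 on DHI 2 (-0.17 to 0.37), and 0.28 on DHI 3 (0.12 to 0.41). All probes tested, projected on the same axis, gave 0.92, -0.01, and 0.18. I/R 3 was the lowest I/R array for 9 of 9 genes, with a median position of 0.84, and its position over all probes was 0.72. The order of the DHI arrays for these genes was thus the order of the arrays as a whole.

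**Figure D3:**
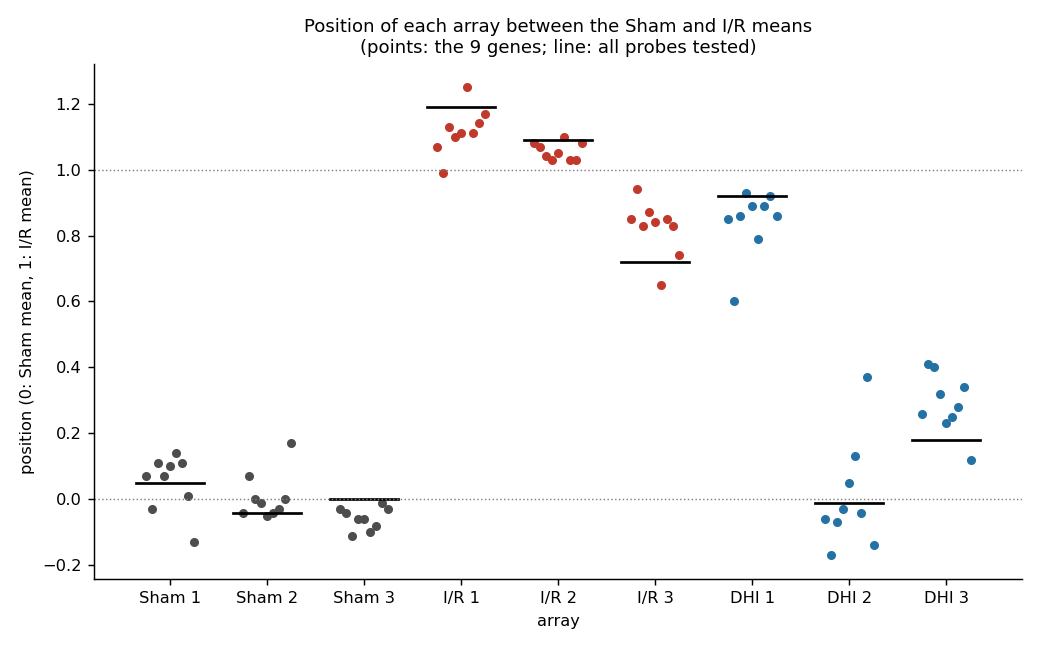
Position of each array (x axis) between the Sham mean, 0, and the I/R mean, 1 (y axis, no unit); points are the 9 genes and the black line is the projection of all probes tested. DHI 1 has a median of 0.86, DHI 2 of -0.04, and DHI 3 of 0.28, and the lines for all probes lie at 0.92, -0.01, and 0.18.

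Over the 9 arrays, Pearson's r between the genes ranged from 0.90 to 1.00 in 36 pairs (median 0.97). On deviations from the group means, it ranged from 0.61 to 1.00 (median 0.91). These deviations leave out the differences between group means. The DHI arrays, spread between the Sham and I/R levels, weigh most in them. The lowest median on deviations belonged to Bst2 (0.82) and the highest to Isg15 and Mx1 (0.95). These correlations are descriptions over 9 arrays that share slides and tissue composition. The 10 genes whose pattern was most like the mean of the 9 (r 0.997 to 0.998 over 9 arrays, out of 15612 genes) were Rnf213, Irf8, Dhx58, Mefv, Sp110, Ms4a11, LOC100366216, Epsti1, Fcgr3a, and Rsad2. The likeness was not rare, since 1794 genes had r over 0.95. By Spearman's rho 1 of these 10, Mefv, was also in the first 10.

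The wider pathway was described with 6 lists of genes with 120 names in all, of which 97 were found on the array and 88 were tested. Of the 88, 69 were higher and 1 lower in I/R than in Sham by the adjusted p, next to 16.6% and 15.7% of all probes, and the median log2 fold change was 3.09. Of the 69, 6 were well above background on 0 of 3 Sham arrays and were tested only through the I/R arrays, which leaves 63. Among the 63, at least Zbp1 and Dtx3l, each well above background on 1 of 3 Sham arrays, also passed the filter only through I/R. The lists were also written with earlier results known, and the counts lapse to 0 in the same fits that leave out 1 array as those of the 9 genes. At most 0.00421% of all probes passed in those fits.

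The ligands themselves gave little signal. Of 12 names, 5 were on the array and 1, Ifna4, was tested (log2 fold change -0.26, not called). Ifnb1, the first type I interferon that most cells make, was well above background on 0 of 3 Sham, 2 of 3 I/R, and 0 of 3 DHI arrays, and Ifng and Ifnk on 0 of 9 arrays. Of 4 receptor genes tested, 2 were higher by the adjusted p, namely Il10rb, a shared chain of the type III receptor (2.83), and Ifngr1, the ligand-binding chain for interferon gamma (2.72), while Ifngr2 (1.06) passed only the unadjusted thresholds.

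Of 11 genes for JAK-STAT signalling and interferon regulatory factors, 8 were higher. Among them were Irf8, a factor of the myeloid lineage (4.59), Irf5 (3.21), Irf1 (2.66), and Irf9, a DNA-binding factor of type I interferon signalling (2.62). The kinases Jak1 (0.35) and Jak2 (0.29) did not pass the test.

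Of 13 sensors and adaptors, 10 were higher and 0 lower. Zbp1, a sensor of Z-form nucleic acid, rose by 7.16, the endosomal RNA receptor Tlr7 by 4.27, the RIG-I-like helicase Dhx58 by 4.03, and Tlr8 was at least 8.43-fold higher, with 0 of 3 Sham arrays well above background. Zbp1 was well above background on 1 of 3 Sham arrays, and both Zbp1 and Tlr8 were tested only through the I/R arrays. Tbk1 (0.04) and Mavs (0.39), a kinase and an adaptor below the sensors, did not pass the test.

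All 9 genes for ISG15 conjugation and inhibitors of signalling were tested, and 6 were higher. They included Usp18, which removes ISG15 and blocks the receptor (4.86), the phosphatase Ptpn6 (4.33), and the activating and conjugating enzymes of ISG15, Uba7 (4.18) and Ube2l6 (3.09). Of 50 other effectors, 43 were higher and 0 lower. The chemokine Cxcl10 rose by 6.14, the antiviral enzyme Rsad2 by 5.67, Ifitm1, which blocks viral entry, by 5.40, and Epsti1 by 5.31. Some close relatives of the 9 genes did not pass the test, among them Oas1b (0.11), Oas1f (-0.10), Oas1h (0.47), and Oas1e (1.29), whereas Oas1k (4.86) and Oas1i (4.80) were higher.

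**Figure D4:**
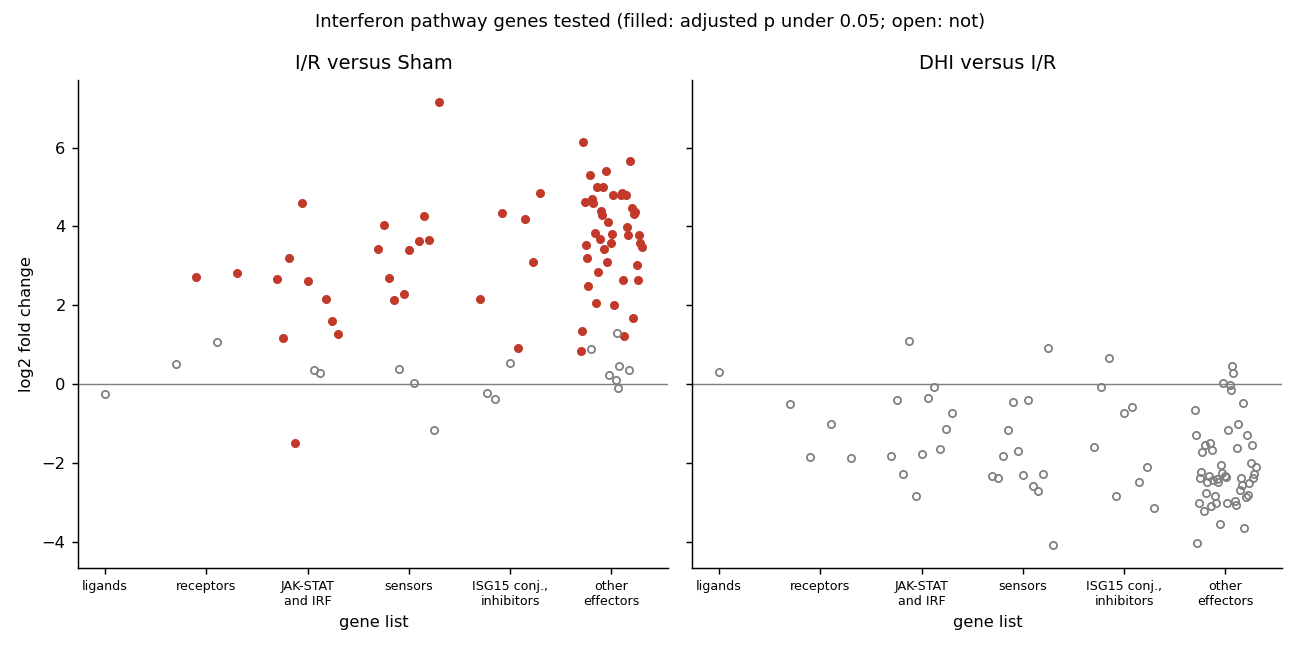
Log2 fold change (y axis) of the 88 tested genes of the 6 interferon pathway lists (x axis) in I/R versus Sham (left) and DHI versus I/R (right); filled points passed an adjusted p under 0.05. In I/R versus Sham 69 genes are higher and 1 is lower by that rule, and on the right no point is filled.

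Relative to I/R, 68 of the 88 genes in DHI were lower and 2 were higher by the unadjusted thresholds, next to 10.5% and 11.4% of all probes, and 0 passed the adjusted p in limma. The median log2 fold change was -2.07. The share of all probes passing the adjusted p depended on the setting. It was 44.7% without DHI 1 and 88.2% with array weights, in either direction. The count of 68 came from limma and depended on the test and on single arrays. By the methods' t-test it was far smaller, and 1.98% of all probes passed in either direction. In limma the count was 17 without I/R 1, 29 without I/R 2, 21 without DHI 2, and 20 when DHI 3 was left out. In these fits 5.81%, 6.98%, 3.96%, and 4.74% of all probes passed in either direction, so the count fell along with the array as a whole. Between DHI and Sham, 4 of the 88 were higher by the unadjusted thresholds, next to 2.52% of all probes, and they were Irf3, Ifit1, Oasl2, and Gbp4. Of these, Ifit1 and Gbp4 were well above background on 0 of 3 Sham arrays. Both were tested only through the I/R arrays, so their calls are set against background signal. Without DHI 2 the count of list genes higher in DHI was 43, next to 10.6% of all probes in either direction.

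The promoters of the list genes were read in the same way. Of the 69 genes higher in I/R, 49 had a window, and 26 of these (53.1%) held GAAANNGAA, compared with 4 of 14 (28.6%) among the other list genes tested and 10.3% of all 27457 genes with a window.

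Markers of immune cells moved with the 9 genes. The summed linear signal of 10 microglia and macrophage markers, in units of the 75th percentile of the array, ranged from 18.3 to 21.9 in Sham and from 121 to 299 in I/R, and was 167, 24.6, and 28.5 on DHI 1, 2, and 3. By the adjusted p 9 of the 10 were higher in I/R, with a median log2 fold change of 3.50, and Cx3cr1 was not (-1.0). The sum of 8 T and NK cell markers ranged from 0.181 to 0.218 in Sham and from 0.538 to 0.891 in I/R and was 0.685, 0.218, and 0.228 on the DHI arrays, with 5 of 7 tested markers higher in I/R. Of these 5, Cd8a and Cd5 were well above background on 0 of 3 Sham arrays and were tested only through the I/R arrays. The sum of 4 neutrophil markers ranged from 0.0475 to 0.0813 in Sham, from 0.298 to 0.903 in I/R, and from 0.104 to 0.372 in DHI, with 3 of 4 higher. None of the markers of these 3 lists was below background on every array. The sum of 4 B cell markers ranged from 0.00876 to 0.0141 in Sham, from 0.015 to 0.0526 in I/R, and from 0.0164 to 0.0268 in DHI, so every I/R sum was above every Sham sum. Of these markers 0 of the 2 tested passed the adjusted p, and Cd79b, which was not tested, was well above background on 0 of 3 Sham and 2 of 3 I/R arrays and was at least 5.12-fold higher in I/R with no overlap.

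The 8 neuronal markers, all well above background on all 9 arrays, moved the other way. Their sum ranged from 71.7 to 82.9 in Sham and was 7.37, 13.8, and 39.0 on I/R 1, 2, and 3 and 26.0, 84.1, and 59.3 on DHI 1, 2, and 3, with 7 of 8 lower in I/R by the adjusted p. Astrocyte markers summed to between 63.1 and 70.8 in Sham, between 85.6 and 118 in I/R, and between 63.4 and 90.8 in DHI, with 3 of 7 higher. Of 6 oligodendrocyte and 6 endothelial markers, 0 and 1 passed the adjusted p. The sum of 3 red blood cell markers ranged from 3.75 to 29.7 in Sham, from 2.27 to 3.34 in I/R, and from 7.33 to 38.9 in DHI. Hbb, Hba-a2, and Alas2 had log2 fold changes of -2.17, -2.04, and -1.71 between Sham and I/R and, between I/R and DHI, of 2.87, 2.67, and 2.06, past the unadjusted thresholds in both comparisons, while 0 of the 3 passed the adjusted p. The part of any of these cell types in the changes of the 9 genes was not tested, and in bulk tissue more cells of a type and more RNA per cell cannot be told apart.

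**Figure D5:**
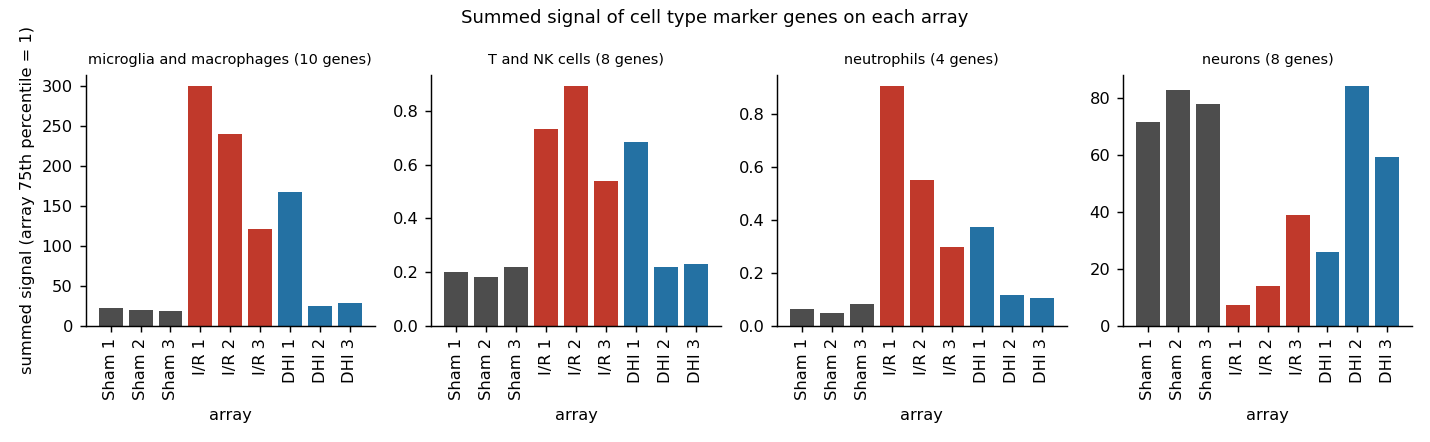
Summed linear signal of marker genes, with the 75th percentile of the array set to 1 (y axis), on each of the 9 arrays (x axis) for 4 cell types; bars are single arrays in grey (Sham), red (I/R), and blue (DHI). Microglia and macrophage markers reach 121 to 299 in I/R and 167 on DHI 1, and neuronal markers fall to 7.37 on I/R 1.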

How the data were processed

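RNA from the brain hemisphere, infarcted in the injured groups, was hybridized to 1-color Agilent arrays, 1 per sample. The authors deposited spot intensity values from Agilent Feature Extraction 10.7.1.1 (version per the submitters' processing notes), with background removed on each array and no scaling across arrays, and a series table of log2 values that followed quantile-normalized log2 intensities computed here (r 0.9995 on each array). The method behind that table is not given in the sources used here. Other measurements of the study were not analysed here.

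Log2 processed signals were set relative to the array's 75th percentile. Controls and 392 to 725 outlier spots per array were left out, and replicate spots were averaged. Tests took the 23747 of 30367 probes well above background (at least 50% of their spots) on all 3 arrays of a group. No column was left unused (0 columns). Positions are rn4, as in the files. In all, 18005 probes matched RefSeq by accession, including those of all 9 genes.

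One model over 9 arrays (limma 3.58.1 in R 4.3.3, the data.table package, version 1.17.8; 6 residual degrees of freedom) gave the 3 comparisons, with Benjamini-Hochberg adjusted p over all probes tested, and steps were tested on simulated data. The unadjusted thresholds (p under 0.05, fold change over 1.5) are those of the study's methods. A probe below background in a whole group gives a bound from the lowest signal well above background on each array. The study describes the 3 samples of a group as biological replicates. Nothing in the labels themselves says that samples of a group came from separate animals, so p-values measure only the spread between these samples. Results for some list genes are not reported here. Members and lists were chosen with earlier results of these data known. From each list the text names the up to 4 genes with the largest change in I/R versus Sham among those that passed, plus, after their values were seen, some that did not pass and relatives of the 9 genes. Promoters were searched with Python 3.11.15 and pandas 2.3.3, and plots were drawn with matplotlib 3.10.9. Alternatives were quantile normalization, no scaling, normexp (offset 50), the series table, other filters and probe rules, 2 groups at a time, array weights, a replicate block, the methods' t-test, and leaving out each array.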

Additional observations from a re-analysis of the deposited data

How the results depend on the processing

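The 9 genes kept their direction under all settings tried, with 1 exception, the difference of Ifit3 between DHI and Sham (-0.05 to 2.15 when 1 array was left out). The filter for probes well above background on all 9 arrays removed Slfn3 and Oasl. Counts over all 9 members include genes given above without a test and are printed here only to show how far a count moves with the setting. By the adjusted p in I/R versus Sham, 9 members (6 of the 6 tested) and 69 list genes passed, compared with 0 and 0 without scaling (0.00421% of all probes), and with 0 to 9 and 0 to 72 when 1 array was left out. Leaving out 1 array gave medians for the 9 genes of 5.13 to 5.76 in I/R versus Sham, -4.48 to -2.24 in DHI versus I/R, and 0.78 to 3.38 in DHI versus Sham. It gave 3 to 9 members and 17 to 73 list genes lower in DHI than in I/R, and 1 to 7 members and 1 to 43 list genes higher in DHI than in Sham. Members lower in DHI than in I/R numbered 3 without I/R 1, 5 without DHI 2, and 4 when DHI 3 was left out. The shares of all probes called in these fits, in either direction, were 5.81%, 3.96%, and 4.74%. Between DHI and Sham the count for the members, 1, became 0 with probes above background on all arrays and 7 with array weights (5 of the 7 tested, lowest adjusted p 0.000522), and that for the lists, 4, became 1 without scaling, 19 with normexp, 2 with probes above background on all arrays, 40 with array weights, and 0 by the methods' t-test. With array weights, 17.6% of all probes passed the unadjusted thresholds between DHI and Sham, in either direction, and 50% passed the adjusted p. The unadjusted share was 7.1% without scaling, 5.65% with normexp, 3% with probes above background on all arrays, and 1.89% by the methods' t-test. The methods' t-test called 1 member and 3 list genes lower in DHI than in I/R, next to 1.98% of all probes in either direction. By Spearman's rho, 1 of the 10 most alike genes remained. The cause was not tested, except that the filter left fewer genes.

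Replicate numbers did not pair the samples: deviations of same-numbered arrays correlated between -0.34 and 0.47. With the number as a replicate block, 3 members and 17 list genes were higher in DHI than in Sham, next to 5.37% of all probes in either direction. For the members and the lists, no other count by the unadjusted thresholds, or by the adjusted p in I/R versus Sham, moved by over 1.5 times. By the adjusted p between DHI and I/R, the share of all probes rose to 44.7% without DHI 1 and to 88.2% with array weights. The fit of the 6 Sham and I/R arrays alone, all on 1 slide, also called 6 of the 6 tested members by the adjusted p. Slide as a block was not run, since a slide that holds only DHI leaves nothing to fit. Genes dim in Sham have only bounds there, which limits Slfn3 and Oasl.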
